A study of Mus musculus with 8 samples.

Results

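Cargo receptors of the early secretory pathway were examined in alphaTC6 cells after knockdown of Klf4: the L-type lectins Lman1, Lman2 and Lman2l and the p24 proteins Tmed2, Tmed3, Tmed4, Tmed5, Tmed7, Tmed9 and Tmed10. These 10 genes, of 55536 in the count table, were matched by symbol, and each symbol was found once. They were chosen by the measured differences between Klf4 siRNA and scramble libraries, chiefly that of Lman2, together with their family. Their differences between treatments are therefore given as a description, and any count of members past a threshold in that comparison carries no support. All 10 were among the 16333 genes with enough counts to be tested, with between 1432 and 14579 counts in every library.

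Newly made secretory and membrane proteins leave the endoplasmic reticulum (ER) in vesicles coated by COPII, and escaped or recycling proteins return in vesicles coated by COPI. Cargo receptors span the membrane and link soluble or lipid-anchored cargo to these coats. The L-type lectins bind high-mannose N-glycans on their cargo. The p24 proteins act as hetero-oligomers drawn from alpha, beta, gamma and delta subfamilies and are known for carrying proteins with a glycosylphosphatidylinositol (GPI) anchor. In an endocrine cell such as the alpha cell, this is the first step on the route of prohormones and granule proteins to the Golgi.

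alphaTC6 is a mouse line of pancreatic alpha cells, which make glucagon, and its genotype is labelled WT. The extraction protocol speaks of isolated islets, although every sample is labelled as this line. All cells underwent reverse transfection with RNAiMax Lipofectamine for 48 h, with either a scramble siRNA (the control) or a pool of siRNAs against Klf4, a zinc finger transcription factor. There were 4 libraries of poly(A) RNA per treatment, which the design text calls biological replicates. The labels place scramble replicates 1 and 2 and Klf4 siRNA replicates 1, 2 and 4 in batch 1, and the other 3 libraries in batch 2. What a batch stands for was not given in the sources used here. As a single cell line received a single siRNA pool, effects of less Klf4 and other effects of that pool cannot be told apart.

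Klf4 RNA was lower in every Klf4 siRNA library than in every scramble library, with a log2 fold change of -1.33 and a standard error (SE) of 0.17 (edgeR quasi-likelihood, adjusted p = 0.0083), or 39.8% of the control level. That adjusted p was 0.052 without scramble replicate 1 and 0.104 in batch 1 alone. Library totals ran from 45954151 to 64185987 counts. Among the alpha cell markers reported here, Gcg and Slc7a2 fell, with log2 fold changes of -0.18 and -0.13 (edgeR adjusted p = 0.0095 and 0.0080). Within each treatment Gcg spread far more widely than this. It ran from 1264 to 8898 CPM (counts scaled to library size) among scramble libraries and from 1073 to 7559 CPM among Klf4 siRNA libraries. Irx2, Pcsk2 and Ttr did not pass the threshold (edgeR adjusted p = 0.827, 0.883 and 0.203), and Gc had at most 4 counts in a library. The part of this fall, and of the spread of Gcg, in the results below was not tested. Ins1, Ins2, Pdx1, Ucn3, Prss2, Cftr and Adgre1, markers of beta, acinar, duct and immune cells, had 0 counts in all 8 libraries. The 6 beta cell markers summed to 3.03 to 3.94 CPM under scramble and to 2.82 to 3.89 after Klf4 siRNA, most of it Mafa. The 4 acinar markers, mainly Cela1, summed to 6.12 to 7.33 CPM under scramble and 5.75 to 7.25 CPM after Klf4 siRNA. The 3 duct markers, mainly Sox9, summed to 1.31 to 4.46 and 1.06 to 3.70 CPM, and the 3 immune markers, mainly Cd68, to 1.66 to 2.41 and 1.57 to 2.05 CPM. The 3 delta and PP cell markers, mainly Ppy with 1 to 9 counts in a library, summed to 0.017 to 0.065 CPM under scramble and 0.094 to 0.205 CPM after Klf4 siRNA, without overlap. The 3 mesenchymal markers summed to 0.299 to 0.588 and 0.246 to 0.411 CPM, and the 3 endothelial markers to 0.261 to 0.436 and 0.280 to 0.319 CPM. Their part in the results below was not tested.

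The promoter windows of Lman2, Tmed3 and Tmed5, the members furthest from 0 between treatments, are shown first because a transcription factor was depleted. Each runs from 250 bases before to 50 after the annotated start, 5′ to 3′ on the gene's strand, from RefSeq on GRCm38.p6. Capitals mark matches on either strand to CACCC, the box bound by many KLF proteins, or to CCNCNCCC, a looser form of GC-rich KLF site. A stretch matched by both motifs is capitalised once.
Lman2: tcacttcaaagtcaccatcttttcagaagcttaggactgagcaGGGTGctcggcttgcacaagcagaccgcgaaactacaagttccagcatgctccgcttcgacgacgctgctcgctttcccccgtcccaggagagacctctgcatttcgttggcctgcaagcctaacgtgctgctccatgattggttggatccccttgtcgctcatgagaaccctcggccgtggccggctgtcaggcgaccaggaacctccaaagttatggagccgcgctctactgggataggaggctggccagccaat
Tmed3: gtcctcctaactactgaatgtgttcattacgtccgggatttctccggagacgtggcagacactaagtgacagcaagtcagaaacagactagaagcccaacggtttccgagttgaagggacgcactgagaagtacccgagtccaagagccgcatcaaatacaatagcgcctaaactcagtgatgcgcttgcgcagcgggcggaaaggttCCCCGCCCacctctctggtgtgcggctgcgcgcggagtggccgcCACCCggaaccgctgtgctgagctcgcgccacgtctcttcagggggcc
Tmed5: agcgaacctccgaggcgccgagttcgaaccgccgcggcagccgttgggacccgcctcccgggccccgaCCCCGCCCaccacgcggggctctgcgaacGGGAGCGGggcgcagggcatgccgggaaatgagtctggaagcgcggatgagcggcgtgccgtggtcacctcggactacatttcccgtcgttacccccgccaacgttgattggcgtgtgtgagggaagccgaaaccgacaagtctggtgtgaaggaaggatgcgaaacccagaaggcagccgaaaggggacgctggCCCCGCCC

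These windows lie at chr13:55362734-55363033, chr9:89704994-89705293 and chr5:108132571-108132870, all on the minus strand. The Lman2 window held 1 match to CACCC, read on the opposite strand, and 0 to CCNCNCCC. The Tmed3 window held 1 match to each, and the Tmed5 window held 0 matches to CACCC and 3 to CCNCNCCC. Of 7 members with a window, 5 held CACCC and 3 held CCNCNCCC. Among all 32817 windows of this length, 57.5% held CACCC and 49.5% held CCNCNCCC. A match is a run of letters, not evidence of binding.

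Lman2, an L-type lectin that cycles between the ER, the Golgi and the compartment between them, was lower after Klf4 siRNA (ENSMUSG00000021484, with up to 8 exons in a transcript, on the minus strand of chromosome 13 from 55343833 to 55362783 in GRCm38). Levels in CPM, scaled by the trimmed mean of M-values (TMM), were 218, 217, 219 and 221 in scramble replicates 1 to 4. They were 144, 152, 162 and 146 in Klf4 siRNA replicates 1 to 4. All 4 Klf4 siRNA libraries lay below all 4 scramble libraries, and the scramble libraries were nearly level across both batches. The means were 218.7 ± 1.47 and 151.2 ± 8.27 CPM (SD, n = 4 each). The log2 fold change was -0.52 with an SE of 0.030, which left 69.9% of the control level, and it was the fall of rank 220 among the 16333 genes. It was -0.56 within batch 1 and -0.44 within batch 2. Over 17 other settings of the analysis it ran from -0.56 to -0.50. In bulk RNA, fewer cells that express a gene and less of its RNA per cell cannot be told apart.

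**Figure D1:**
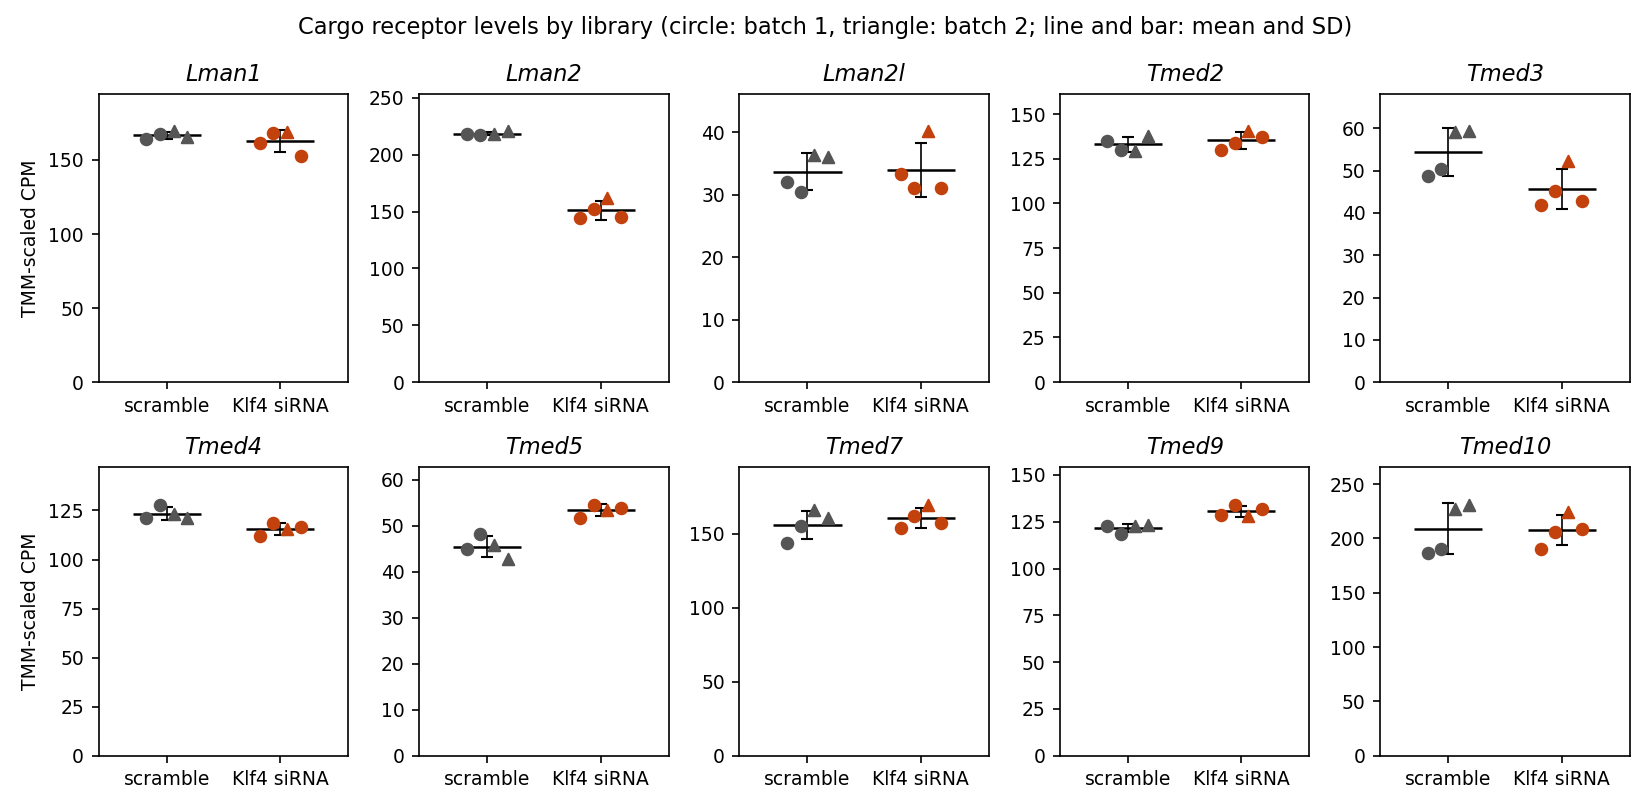
TMM-scaled CPM of the 10 cargo receptors (y axis, from 0) in 4 scramble and 4 Klf4 siRNA libraries (x axis). Circles are batch 1 and triangles batch 2, and the line and bar are the mean and SD. Lman2 lies between 217 and 221 CPM in scramble and between 144 and 162 CPM in Klf4 siRNA libraries.

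The other lectins lacked such a gap. Lman1, the lectin of the ER-Golgi intermediate compartment that exports glycoproteins such as coagulation factors, had 164, 168, 169 and 166 CPM in scramble replicates 1 to 4. Its values were 161, 168, 169 and 153 CPM in Klf4 siRNA replicates 1 to 4. The treatments overlapped, and the log2 fold change was -0.025 with an SE of 0.030 (95% interval -0.089 to 0.038). Lman2l, an ER-resident relative of Lman2, had 32.0, 30.4, 36.4 and 36.0 CPM in scramble replicates 1 to 4. Its values after Klf4 siRNA were 33.4, 31.1, 40.2 and 31.1 CPM in replicates 1 to 4. The 3 highest values were the 3 libraries of batch 2. Its log2 fold change between treatments was 0.074 with an SE of 0.040 (95% interval -0.011 to 0.16). That value was 0.0095 without the batch term and 0.0069 with a replicate block in its place. With a library left out it ran from 0.028 to 0.11. The span of Lman2l overlaps Fer1l5 on the opposite strand, which had at most 3 counts.

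The sole beta and delta members of the p24 proteins overlapped between treatments. Tmed2, the beta member, had 134.9, 129.9, 129 and 138 CPM in scramble replicates 1 to 4 and 129.8, 134, 140.5 and 137 CPM in Klf4 siRNA replicates 1 to 4. Its log2 fold change was 0.033 with an SE of 0.031 (95% interval -0.030 to 0.097). Tmed10, the delta member and with Tmed2 a core of p24 complexes, had 187, 190.3, 228 and 231 CPM in scramble replicates 1 to 4 and 191, 206, 225 and 208 CPM in Klf4 siRNA replicates 1 to 4. Its lowest values were those of batch 1, and the treatments overlapped. Its log2 fold change was 0.052 with an SE of 0.033 (95% interval -0.018 to 0.12). It was 0.096 within batch 1 and -0.030 within batch 2. It was -0.010 without the batch term, and with a library left out it ran from 0.031 (scramble replicate 1) to 0.098 (Klf4 siRNA replicate 3).

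The values of both tested alpha members lay apart between treatments, in opposite directions. Tmed4 had 121, 128, 123 and 121 CPM in scramble replicates 1 to 4 and 112, 119, 115 and 116 CPM in Klf4 siRNA replicates 1 to 4. Tmed9 had 123, 119, 123 and 123 CPM in scramble replicates 1 to 4 and 128, 134, 128 and 132 CPM in Klf4 siRNA replicates 1 to 4. For each gene the 2 treatments did not overlap. The log2 fold changes were -0.097 for Tmed4 and 0.10 for Tmed9, with SEs of 0.030 and 0.029. These are the smallest differences of the members whose treatments did not overlap. Tmed11, the other alpha member and no part of the 10, had 0 counts in all libraries.

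The gamma members diverged too. Tmed3 had 48.7, 50.3, 59.1 and 59.3 CPM in scramble replicates 1 to 4. After Klf4 siRNA it had 41.9, 45.2, 52.3 and 42.9 CPM. The treatments overlapped over all libraries, yet every Klf4 siRNA library was below both scramble libraries of its own batch. The log2 fold change was -0.19 with an SE of 0.033, and it was -0.19 within batch 1 and -0.18 within batch 2.

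Tmed5 was the member with the largest value in the other direction. It had 44.9, 48.3, 45.9 and 42.7 CPM in scramble replicates 1 to 4 and 51.7, 54.6, 53.4 and 53.9 CPM in Klf4 siRNA replicates 1 to 4. All Klf4 siRNA libraries lay above all scramble libraries. The log2 fold change was 0.22 with an SE of 0.037, or 116.8% of the control level. Tmed5 overlaps Mtf2 on the opposite strand, which had 1937 to 2482 counts, and as the use of strand in counting was not given, reads of the pair could be shared.

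Tmed7 had 144, 155, 166 and 161 CPM in scramble replicates 1 to 4 and 154, 162, 169.8 and 158 CPM in Klf4 siRNA replicates 1 to 4. The treatments overlapped, and the log2 fold change was 0.072 with an SE of 0.030. Tmed1 and Tmed8, Tmed genes outside the 10, had log2 fold changes of 0.024 and 0.016 and did not pass the threshold (edgeR adjusted p = 0.838 for each). Tmed6 had at most 3 counts and Lman1l had 0, so neither was tested.

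In all, 5 of the 10 members had an edgeR adjusted p under 0.05 between treatments, Lman2, Tmed3 and Tmed4 lower and Tmed5 and Tmed9 higher, where 11.7% of all tested genes did (6.81% lower and 4.88% higher). The members were proposed from this comparison, so nothing is read from that count or from how it moves between settings. It was 3 without scramble replicate 1 or without scramble replicate 2, where Tmed4 and Tmed9 dropped out, and 2 without the batch term, where Tmed3 did too. Among 17 other settings Tmed4 passed in 8, Tmed9 in 11, Tmed3 in 16, and Lman2 and Tmed5 in 17 each. In 4 members (Lman2, Tmed4, Tmed5 and Tmed9) the libraries of the 2 treatments did not overlap, against 10.5% of tested genes. The median log2 fold change was 0.043 over the members and 4.33e-05 over all tested genes.

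**Figure D2:**
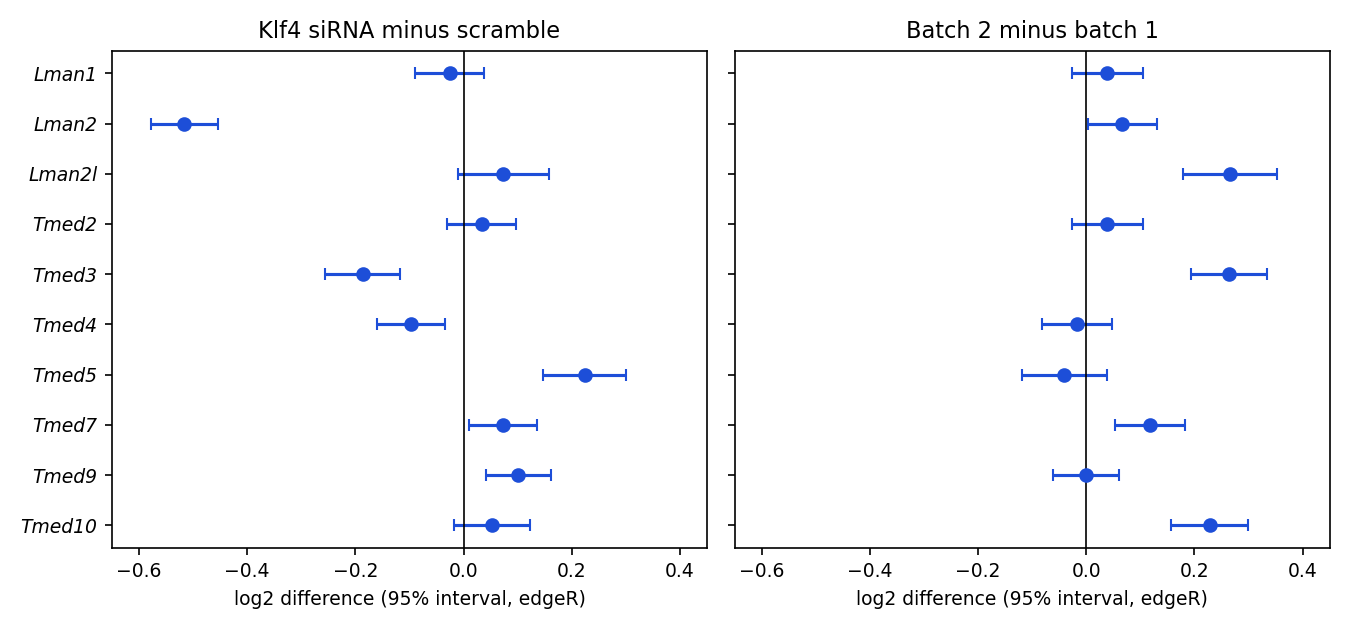
Log2 differences (x axis) of the 10 members (y axis) between treatments (left) and between batches (right) from 1 edgeR fit of 8 libraries. Points are estimates and bars 95% intervals. Lman2 is at -0.52 between treatments, whereas between batches Lman2l, Tmed3 and Tmed10 lie between 0.23 and 0.27.

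Lman2 was next set against the other members inside each library, a measure that needs no scaling between libraries. It took 17.9%, 17.6%, 16.8% and 17.0% of the counts of the 10 genes in scramble replicates 1 to 4. It took 12.6%, 12.6%, 12.9% and 12.4% in Klf4 siRNA replicates 1 to 4. The groups did not overlap, and the library with the highest share after Klf4 siRNA was the one of batch 2. The summed level of the other 9 genes was 1044 ± 41.1 CPM under scramble and 1046 ± 38.0 CPM after Klf4 siRNA (SD, n = 4 each). These means mix the batches unevenly. Within batch 1 the sums were 999 and 1018 CPM under scramble and 1003, 1054 and 1032 CPM after Klf4 siRNA, and within batch 2 they were 1079.5 and 1078 CPM against 1093 CPM. The Klf4 siRNA sums were thus higher on average within each batch, with overlap in batch 1. The ratio of Lman2 to Lman1 counts was 1.31 ± 0.021 in scramble and 0.930 ± 0.033 in Klf4 siRNA libraries (SD, n = 4 each). Lman2 thus had more counts than Lman1 in each scramble library and fewer in each Klf4 siRNA library. By counts, it ranked 1 or 2 among the 10 in scramble libraries and 4 in all Klf4 siRNA libraries.

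**Figure D3:**
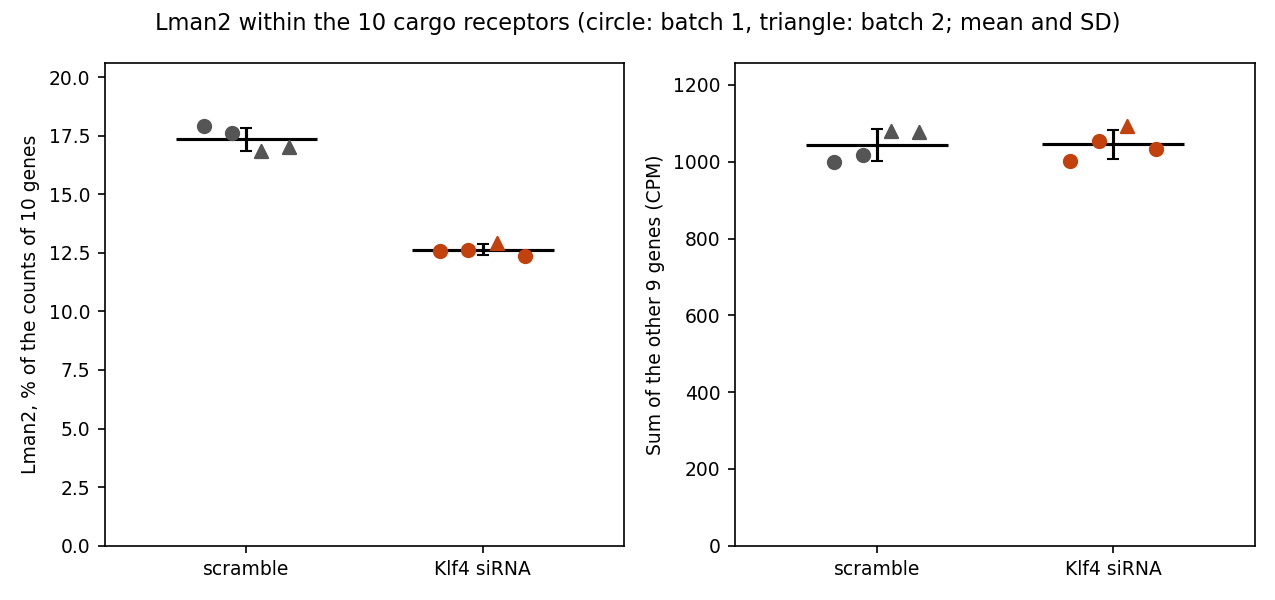
Share of Lman2 in the counts of the 10 cargo receptors (left, percent) and summed CPM of the other 9 (right) in scramble and Klf4 siRNA libraries. Circles are batch 1, triangles batch 2, lines and bars the mean and SD. The share is 16.8% to 17.9% in scramble and 12.4% to 12.9% after Klf4 siRNA, and the summed level of the others is higher in batch 2 under both treatments.

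Levels were compared between genes as CPM per kilobase of the union of annotated exons. In scramble libraries the order was Tmed4 (56.6 ± 1.50 CPM per kilobase), Tmed2 (52.6 ± 1.59), Tmed10 (36.0 ± 4.06), Tmed9 (35.4 ± 0.624) and Lman2 (27.6 ± 0.186; SD, n = 4 each). Tmed3 (19.1 ± 1.98 CPM per kilobase), Lman1 (18.9 ± 0.257), Tmed7 (17.7 ± 1.08), Tmed5 (5.91 ± 0.301) and Lman2l (4.58 ± 0.400) followed. Neighbours in this order overlapped between Tmed10 and Tmed9, between Tmed3 and Lman1, and between Lman1 and Tmed7. Both alpha members, the beta member and the delta member stood above all gamma members.

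After Klf4 siRNA, Lman2 stood at 19.1 ± 1.04 CPM per kilobase (SD, n = 4) and overlapped Lman1 at 18.4 ± 0.836, from which it had been separate in scramble libraries. Per kilobase of the longest transcript, Tmed10 came first in scramble libraries at 65.7 ± 7.42 and overlapped Tmed2. By group means Lman2 ranked 5 on both lengths and in both treatments. Per library, on the union of exons, it ranked 6 in Klf4 siRNA replicate 1 and 5 in the other 7 libraries.

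Batches were compared next, a contrast that the choice of members did not use. Of the 10 members, 4 differed between batches by edgeR, all of them higher in batch 2, where 32.7% of all tested genes differed (16.8% higher). Lman2l was higher by 0.27 on the log2 scale (SE 0.041, edgeR adjusted p = 4e-05) and Tmed3 by 0.26 (SE 0.034, edgeR adjusted p = 3.47e-06). Tmed10 was higher by 0.23 (SE 0.034, edgeR adjusted p = 3e-05). For these 3 genes, all libraries of batch 2 lay above all of batch 1, as 29.4% of tested genes did not overlap in either direction. They also passed the threshold in the 4 scramble libraries alone.

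Tmed7 was higher in batch 2 by 0.12 on the log2 scale (SE 0.031, edgeR adjusted p = 0.0054), and its adjusted p was 0.057 without scramble replicate 1. Lman2, which differed most between treatments, did not pass the threshold between batches (log2 difference 0.067, 95% interval 0.0031 to 0.13, edgeR adjusted p = 0.104). Its difference was 0.011 in scramble libraries alone and ran from 0.013 to 0.080 with a library left out. Tmed9 was at -0.00017 (95% interval -0.062 to 0.061).

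Whether the change after Klf4 siRNA differed between batches was tested as an interaction. The interaction passed the edgeR threshold for 0 of the 10 members, and for 1, Lman2, at an unadjusted p under 0.05. Its interaction was 0.13 on the log2 scale with an edgeR p of 0.043 (adjusted p = 0.999). Over all tested genes 0 passed and 540 had an unadjusted p under 0.05, and DESeq2 and limma-voom each called 0 genes. Batch 2 had 1 Klf4 siRNA library, which limits this test.

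Other genes of the early secretory pathway were taken from 7 lists written from their roles, 86 genes of which 81 were tested. After Klf4 siRNA 8 rose and 6 fell, 17.3% against 11.7% of all tested genes, with a median log2 fold change of 0.024. Without scramble replicate 1, without scramble replicate 2 and without Klf4 siRNA replicate 3 the number called was 7, 9 and 9, and it was 3 without the batch term, where Sec24a, Gosr1 and Pigs remained.

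Of 15 tested receptors for ER export and retrieval, 2 rose and 2 fell. Ergic2, a membrane protein of ER-Golgi carriers, rose from 133 ± 8.17 to 152 ± 5.91 CPM (SD, n = 4 each; log2 fold change 0.16, edgeR adjusted p = 0.00038). Bcap29, an ER membrane protein, rose by 0.18 on the log2 scale (edgeR adjusted p = 0.00071). Surf4, an export receptor for soluble cargo, fell by 0.11 (edgeR adjusted p = 0.0066, and 0.059 without scramble replicate 1).

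The COPII coat forms vesicles at ER exit sites. Of its 16 genes, all tested, 2 rose and 1 fell, at a median of 0.073. Sec24a, a subunit that binds cargo signals, rose from 43.0 ± 2.83 to 52.4 ± 0.857 CPM (SD, n = 4 each; log2 fold change 0.28, SE 0.042, edgeR adjusted p = 0.00012). Sec23a, its partner in the inner coat, rose by 0.24 (edgeR adjusted p = 0.0059), and its p was 0.116 when Klf4 siRNA replicate 3 was left out. Sec31b, an outer coat subunit, fell by 0.82 at a mean of 0.541 CPM in scramble libraries (edgeR adjusted p = 0.031). Leaving out any of 6 libraries ended that call, and the highest adjusted p was 0.145, without scramble replicate 2.

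The COPI coat carries p24 proteins and lectins back to the ER. Of its 13 genes, 0 passed the edgeR threshold, 4 had an unadjusted p under 0.05, and DESeq2 and limma-voom each called 1. The median log2 fold change was 0.028. Over all 7 lists, 26 genes were higher and 11 lower in batch 2 by edgeR, where 16.8% and 15.9% of all tested genes were. COPI genes made up 8 of the 26 and 2 of the 11, and the N-glycan genes 2 and 3.

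Among 13 tethers and SNAREs of the early Golgi, which dock and fuse arriving vesicles, 3 rose and 1 fell. Gosr1, a Golgi SNARE, fell by 0.17 (edgeR adjusted p = 0.0040). Gorasp2, a Golgi stacking protein, rose by 0.10 (edgeR adjusted p = 0.020), but its adjusted p was 0.099 and 0.152 when scramble replicate 1 and scramble replicate 2 were left out. Gosr2, a SNARE of ER-Golgi fusion, rose by 0.099 (edgeR adjusted p = 0.025). It lost the call when any of 4 libraries was left out, and its highest adjusted p was 0.130, without Klf4 siRNA replicate 3. Without the batch term, Gorasp2 and Gosr2 were at 0.030 and 0.017.

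Of 13 genes for N-glycan trimming and lectin-assisted folding, which act on the glycans that L-type lectins recognise, 1 rose and 1 fell. Edem2, which takes part in mannose trimming for ER-associated degradation, fell by 0.19 (edgeR adjusted p = 0.0016). Canx, the membrane lectin chaperone calnexin, rose by 0.11 (edgeR adjusted p = 0.018, and 0.156 without scramble replicate 1). Of 9 genes for GPI anchor transfer and remodelling, which prepare cargo of p24 proteins, Pigs fell by 0.20 in log2 fold change (edgeR adjusted p = 0.00022), whereas 8 did not pass. Pigs encodes a subunit of the GPI transamidase.

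**Figure D4:**
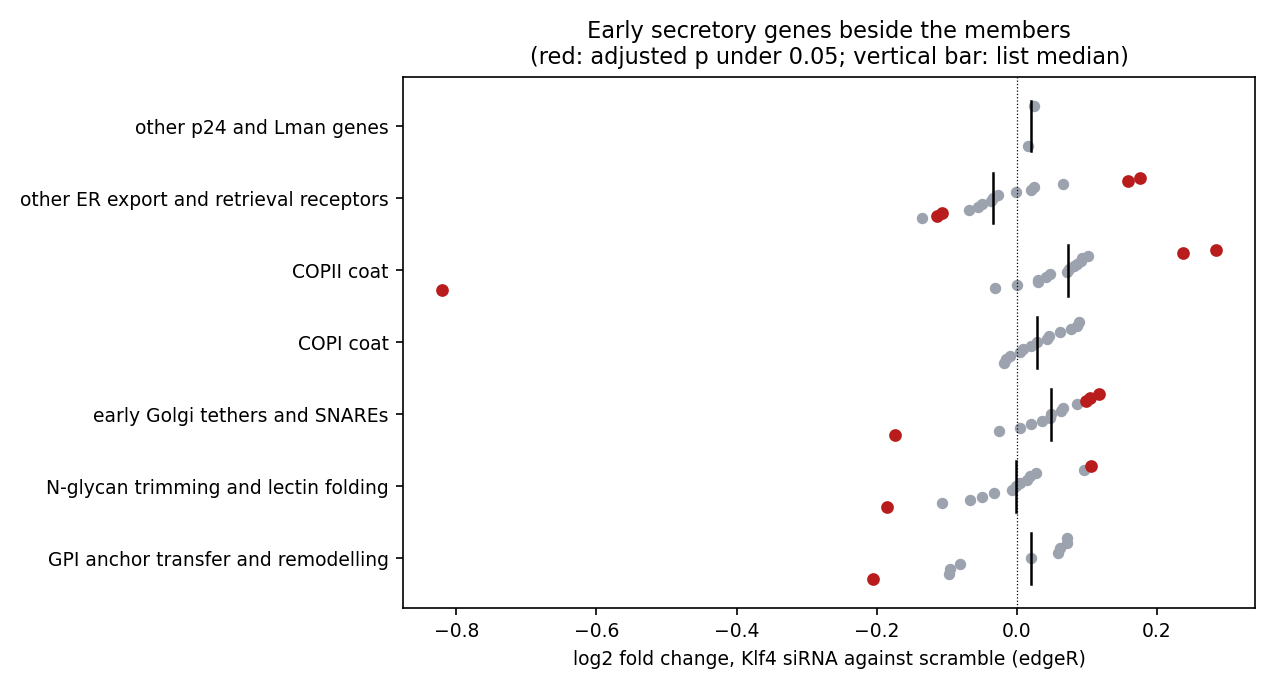
Log2 fold change after Klf4 siRNA (x axis) of 81 tested genes in 7 lists of the early secretory pathway (y axis). Each point is a gene, red where the edgeR adjusted p was under 0.05, and vertical bars are list medians. Red points number 14, with 8 above 0 and 6 below, and COPI genes have 0.

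Genes around Lman2 on chromosome 13 were examined because Tmed9, with a value in the other direction, lies 211 kb away. Within 250 kb of Lman2, 15 genes other than the members were tested, with log2 fold changes from -0.15 to 0.18 and a median of 0.049. Of these, 2 fell and 1 rose by edgeR, where 6.81% of all tested genes fell and 4.88% rose. The called genes are named here after their values were seen. Prelid1, a mitochondrial lipid carrier, fell by 0.15 (edgeR adjusted p = 0.0058), with a p of 0.078 when Klf4 siRNA replicate 3 was left out. Pdlim7, a cytoskeletal scaffold, rose by 0.18 (edgeR adjusted p = 0.0078), with a p of 0.096 when Klf4 siRNA replicate 3 was left out. Grk6, a receptor kinase, fell by 0.087 (edgeR adjusted p = 0.038, and 0.248 without scramble replicate 1). Mxd3, 14.0 kb away and the nearest of the tested genes, was at -0.065 (edgeR adjusted p = 0.367). Without the batch term the calls of Prelid1, Pdlim7 and Grk6 were lost (edgeR adjusted p = 0.093, 0.146 and 0.395). Prelid1 overlaps Rab24 and Mxd3 on the opposite strand.

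**Figure D5:**
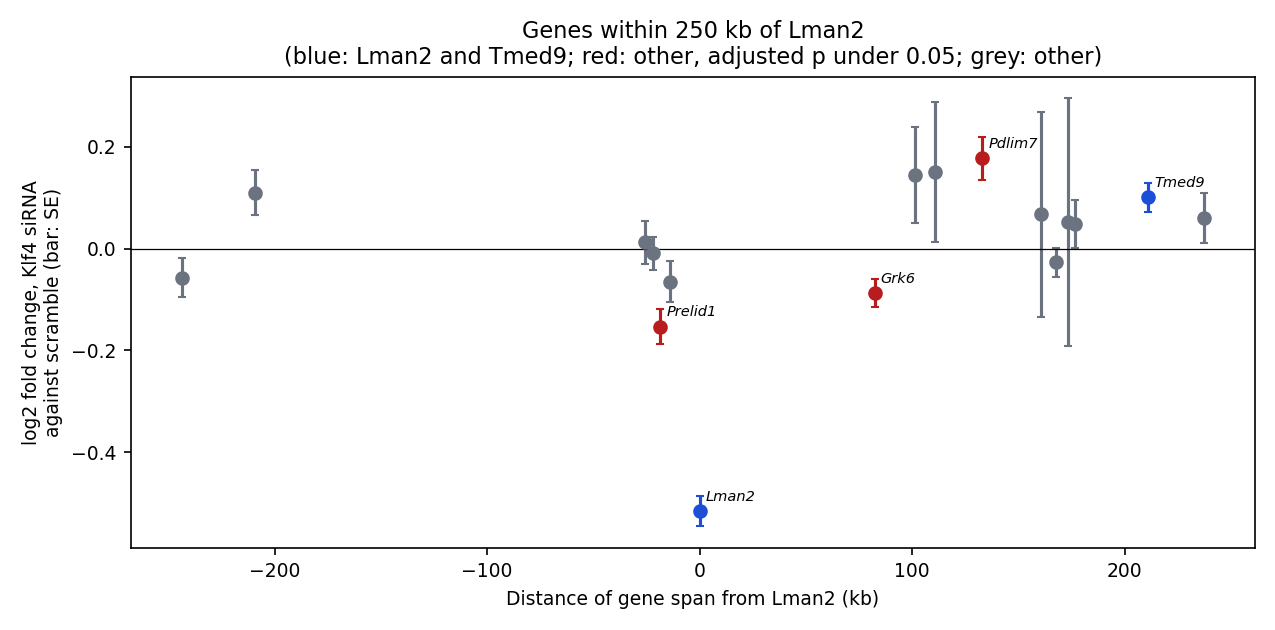
Log2 fold change after Klf4 siRNA with its SE (y axis) of tested genes within 250 kb of Lman2 against the distance of their spans from Lman2 in kb (x axis). Blue marks Lman2 and Tmed9, red other genes with an edgeR adjusted p under 0.05, grey the rest. Lman2 is at -0.52, and the 15 genes that are no members lie between -0.15 and 0.18.

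The genes whose profile was most like that of Lman2 were sought over the 8 libraries among 9337 genes with a mean of at least 10 CPM. Likeness was the root mean square difference of log2 CPM after each gene was centred on its own mean. The closest was Arl2bp, which encodes a binding partner of the small GTPase Arl2, at 0.029. Its level was 192 ± 3.29 CPM under scramble and 134 ± 7.75 CPM after Klf4 siRNA (SD, n = 4 each). Rab33b (0.042), a Golgi Rab GTPase, and Fam53a (0.044) followed. Kpna1 (0.049), a nuclear import adaptor, and Smim14 (0.051) completed the 5. Their log2 fold changes between treatments, from -0.50 for Rab33b to -0.43 for Kpna1, follow from the choice by profile. Of the other members, Tmed3 was the closest to Lman2, at 0.17 and rank 246, and Tmed5 the farthest, at 0.39.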

How the data were processed

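RNA of alphaTC6 cells was measured in 4 scramble and 4 Klf4 siRNA libraries. The authors deposited whole-number counts per gene, not normalized. Reads were trimmed with cutadapt, per the name of the deposited table, and FastQC, STAR, featureCounts, DESeq2 and build mm10 stand in the submitters' processing notes. Versions, annotation and use of strand were not given in the sources used here. All 55536 identifiers and symbols matched GENCODE M21 (GRCm38), which gave positions and lengths. No column was left unmapped and no row lacked a gene.

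The design text names edgeR with batch correction. Genes kept by filterByExpr were fitted here in edgeR 4.0.16 (R 4.3.3) with TMM scaling and a robust quasi-likelihood model of batch and treatment. It had 5 residual degrees of freedom. P-values were two-sided, adjusted by Benjamini-Hochberg over all tested genes, with a threshold of 0.05. SE is the absolute log2 fold change over the square root of F. Log2 CPM used a prior count of 2. Changes within a batch are differences of mean log2 CPM. Genes named were Klf4, the members, up to 3 called genes per list with the smallest adjusted p, and the 5 profiles most like Lman2. Cell type markers, Tmed1, Tmed8 and the genes near Lman2 were named outside this rule, after their values were seen. The members and lists were chosen with earlier results of these data known. Some alpha cell markers are not reported here. The fit was tested on simulated counts. Alternatives used DESeq2 1.42.0 and limma 3.58.1, other scalings, filters and terms, and each library left out. Without molecular identifiers, counts include PCR duplicates, so precision rests on the spread between libraries. Libraries differed by far more than sampling noise, at 10.2 or more chi-square units per degree of freedom in every pair.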

Additional observations from a re-analysis of the deposited data

Results flagged for a closer look

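The levels of the 10 members and Klf4 were searched, in 22 groups of 4 libraries, for a library far from the other 3. Scramble replicate 2 stood apart for Tmed9, at 119 CPM against 122.6 to 123.2 CPM in the other scramble libraries. The gap to the nearest library was 0.870 of the range of the 4. Chance gives such a gap in about 1 of 20 groups, so 1 case in 22 groups is near that rate.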

How the results depend on the processing

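The number of genes called after Klf4 siRNA was 1909. It was 409 without the batch term, 1232 in batch 1 alone, and 934 to 2021 with a library left out, the lowest without scramble replicate 1. It was 1012 without scramble replicate 2 and 1232 without Klf4 siRNA replicate 3. With a replicate block instead of batch it was 1220, the genes of the secretory lists numbered 9, and the members called fell from 5 to 3, with Tmed4 and Tmed9 lost. Those genes, 14 with all libraries and the batch term, numbered 3 without the batch term, 9 in batch 1 alone and 7 to 16 with a library left out. The interaction called 17 genes with no filter and 0 to 13 with a library left out, the highest without scramble replicate 3. Members called between batches numbered 3 or 4 in all 15 alternatives. Same-numbered libraries of replicates 1 to 4 had deviations from their group means that correlated at 0.49, 0.42, 0.72 and -0.34, and 5 of 8 libraries correlated best with their own number. Scramble replicates 1, 2 and 3 were each nearest to the Klf4 siRNA library of their own number, at 10.4, 18.25 and 18.3 chi-square units per degree of freedom. Scramble replicate 4 was nearest to Klf4 siRNA replicate 3, at 47.1. Libraries numbered 1 to 3 share a batch within each number, so batch enters these values, and a pairing of them was not tested. Since the 2 libraries numbered 4 belong to different batches, the numbers were not taken as pairs in the main fit. The direction between treatments was the same in all 17 alternatives for 9 members. Tmed10 turned, to -0.010 without the batch term and -0.0059 with the replicate block. Between batches, Tmed4 ran from -0.035 to 0.0034 with a library left out and turned without scramble replicate 2. Tmed9, at -0.00017, ran from -0.020 to 0.028 with a library left out and turned to 0.026 in scramble libraries alone and 0.011 with a mean of at least 5 CPM. It was at 0.0030, 0.0057, 0.028 and 0.00098 without scramble replicate 1 and Klf4 siRNA replicates 2, 3 and 4. In these cases the cause was not tested. Tmed7 lost its call between batches with library size alone (edgeR adjusted p = 0.103). An interaction could not be fitted without Klf4 siRNA replicate 3.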
